A study of Mus musculus with 6 samples.

Results

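The genes described here are Cyfip2 and the 9 other genes that encode subunits of the WAVE complex (Cyfip1, Nckap1, Nckap1l, Wasf1, Wasf2, Wasf3, Abi1, Abi2 and Brk1), 10 of the 55401 gene identifiers in the deposited count table. Cyfip2 was chosen by its own measured counts, which were higher after RBM20 delivery in these same libraries, and the other 9 were taken because their products sit in the same complex. The difference in Cyfip2 is therefore given as a description, without a test.

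RNA-seq was performed on 6 tibialis anterior (TA) muscles, a fast-twitch muscle of the lower leg, to compare forced expression of the splicing factor RBM20 with a GFP control in muscle that lacks the clock factor BMAL1. Every library came from C57BL/6 mice of genotype HSA-MCM-Bmal1-/-, made from iMSBmal1fl/fl animals kept to 12 to 16 weeks of age and then given 2 mg of tamoxifen a day for 5 days. The whole TA received adeno-associated virus (AAV) 4 weeks later, either AAV-GFP (n = 3) or AAV-RBM20 (n = 3), and was collected after another 4 weeks. Both groups thus carry the Bmal1 deletion and an AAV injection, and no uninjected or Bmal1-positive muscle is compared here. HSA-MCM is a tamoxifen-inducible Cre driven by the human skeletal actin promoter, so recombination is directed to muscle fibres and the other cells of the TA keep Bmal1. The RBM20 vector carried an HA-tagged mouse Rbm20 cDNA behind the broadly active CMV promoter and, per the study's methods, was injected in a larger amount than the control virus. Vector dose and transgene cannot be told apart in this comparison. The labels do not tie the samples to separate animals, so p-values measure the spread between these samples, which may be partly technical. The lane list of the study's RBM20 blots gives some GFP and RBM20 muscles the same number, marked R and L. Whether the libraries here are paired in this way is not given, and the main test did not use such a pairing.

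The WAVE complex turns signals from the small GTPase RAC into branched actin filaments. A CYFIP protein and a NCKAP1 (HEM) protein form one arm that binds RAC, and a WASF (WAVE) protein, an ABI protein and BRK1 form the other, whose exposed end activates the ARP2/3 complex. Each position except that of BRK1 can be filled by alternative paralogues, so the makeup of the complex follows which paralogues a cell expresses. CYFIP proteins also bind FMRP, the RNA-binding protein lost in fragile X syndrome, and CYFIP2 is best known from brain and from blood cells.

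Total counts ranged from 41400132 to 54226618 per library. Both libraries numbered 3 stood apart from the other 4. They separated along a first principal component holding 47.2% of the variance, and Ttn, the titin gene, took 4.48% and 9.05% of their counts compared with 16.9 to 17.8% elsewhere. Results that rest on these libraries are given with and without them. Levels are given as CPM, counts scaled to a common library size by the trimmed mean of M-values. Rbm20 itself measured 170, 165 and 164 CPM in AAV-GFP and 499, 545 and 406 CPM in AAV-RBM20, so the groups did not overlap and followed their labels. Its counts include those of the delivered cDNA. Markers of fast fibres summed to between 60115 and 101028 CPM across the 6 libraries, as a fast muscle should hold, and no fast-fibre marker was at 0 in any library.

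Because the results turn on telling Cyfip2 from its paralogue Cyfip1, the sequences were compared first. Cyfip2 (ENSMUSG00000020340) lies on the minus strand of chromosome 11 at 46193850 to 46312859 and Cyfip1 (ENSMUSG00000030447) on the plus strand of chromosome 7 at 55841745 to 55932602 (GRCm38). Both main transcripts have a coding sequence of 3759 bases. Their longest identical stretch is 24 bases, at coding bases 1024 to 1047 in both. The 90 coding bases around it, which begin in exon 10 and end in exon 11 of 31 in both genes, are printed here. They come from GENCODE M21, with the shared stretch in capitals. In Cyfip2 they span chr11:46270582-46272610 on the minus strand with the intron, and in Cyfip1 chr7:55886816-55887909 on the plus strand with the intron.
Cyfip2: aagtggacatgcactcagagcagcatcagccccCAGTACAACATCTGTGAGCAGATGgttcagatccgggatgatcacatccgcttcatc
Cyfip1: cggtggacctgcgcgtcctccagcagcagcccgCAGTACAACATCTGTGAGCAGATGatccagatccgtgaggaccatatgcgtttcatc
Outside the capitals these windows differ at 20 bases. None of the 7146 distinct 50-base words of the Cyfip2 transcripts occurs in a transcript of another annotated gene. For Cyfip1, 1449 of 12212 words (11.9%) are also found in transcripts of 64 other genes, and none of these is Cyfip2. Other paralogue pairs of the complex share at most 23 identical coding bases, between Abi1 and Abi2.

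Cyfip2 encodes the CYFIP subunit that was the lesser of the pair in AAV-GFP muscle, and its level was several-fold higher in AAV-RBM20 muscle. It had 197, 256 and 169 counts in AAV-GFP replicates 1, 2 and 3 and 1003, 762 and 703 counts in AAV-RBM20 replicates 1, 2 and 3. After scaling these were 4.85, 6.13 and 3.21 CPM in AAV-GFP and 18.4, 19.0 and 14.5 CPM in AAV-RBM20. The lowest AAV-RBM20 library was thus well above the highest AAV-GFP library, and in both groups the library numbered 3 was the lowest. The means were 4.73 ± 1.46 and 17.3 ± 2.44 CPM (SD, n = 3 each), a ratio of 3.65, and the fitted log2 fold change was 1.87 ± 0.24 (SE). It was 1.77 without both libraries numbered 3 and 1.90 with the replicate number as a block. By size of its positive log2 fold change Cyfip2 ranked 55 among all 17222 genes tested. It ranked 8 among the 11555 whose log2 CPM averaged 1 or more, where Rbm20 ranked 12. Cyfip2 was chosen for this same difference, so its high ranks follow from the choice and only describe its size.

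**Figure D1:**
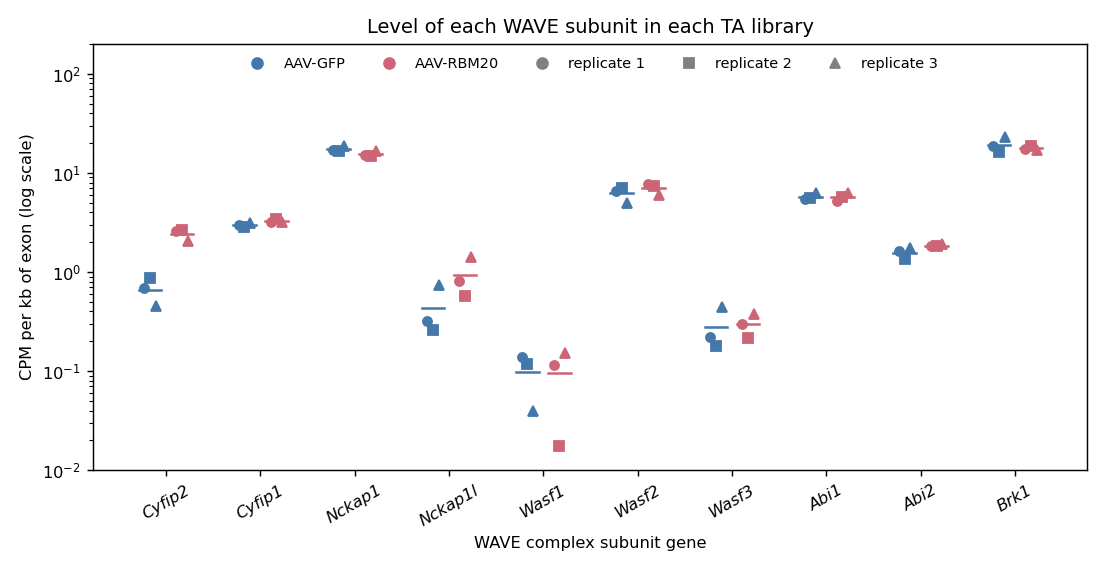
Level of each WAVE subunit gene in CPM per kilobase of exon (log axis) in the 6 TA libraries; blue marks AAV-GFP, red AAV-RBM20, circles, squares and triangles replicates 1, 2 and 3, and horizontal lines the group means. Cyfip2 is the gene whose groups lie farthest apart without overlap, at 0.452 to 0.864 in AAV-GFP and 2.04 to 2.67 in AAV-RBM20.

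Counts from overlapping genes were small beside those of Cyfip2. Fndc9, on the opposite strand within the Cyfip2 locus, had 0 counts in every library. The pseudogene Gm12568, on the same strand, had 0, 0 and 1 counts in AAV-GFP libraries and 0, 2 and 4 counts in AAV-RBM20 libraries. Of the neighbours within 250 kb, Adam19, a membrane metalloprotease gene 46.5 kb away, had 711, 615 and 836 counts in AAV-GFP libraries against 1477, 836 and 1000 in AAV-RBM20 libraries, which did not overlap once scaled (log2 fold change 0.51 ± 0.15, adjusted p = 0.618, edgeR). Other neighbours tested were Lsm11, Thg1l, Gm12166, Mir8100 and Med7, with log2 fold changes from -1.25 for Gm12166 to 0.90 for Mir8100. None of these neighbours passed the threshold.

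Cyfip1, the paralogue that can take the same place in the complex, measured 35.3, 33.8 and 37.2 CPM in AAV-GFP and 37.9, 40.5 and 38.1 CPM in AAV-RBM20. The ranges did not overlap, but the gap between them was small beside that of Cyfip2. The log2 fold change was 0.13 ± 0.11 with an adjusted p of 0.740 (edgeR quasi-likelihood test, Benjamini-Hochberg adjustment over 17222 genes). Cyfip1 overlaps Nipa2 on the opposite strand, which had 1101 to 2249 counts, and the strand setting of the counting is not given in the sources used here, so its level is uncertain.

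To set paralogues against each other, counts were divided by exon length as well. On this scale Cyfip2 measured 0.682, 0.864 and 0.452 CPM per kilobase in AAV-GFP, against 2.59, 2.67 and 2.04 in AAV-RBM20. Cyfip1 measured 2.95, 2.83 and 3.11 and then 3.17, 3.39 and 3.19. Cyfip2 therefore made up 18.8%, 23.4% and 12.7% of the CYFIP total in AAV-GFP, against 44.9%, 44.1% and 39.0% in AAV-RBM20. Cyfip1 stayed the larger part in all 6 libraries. The mean share of Cyfip2 was 18.3% ± 5.36 in AAV-GFP and 42.7% ± 3.21 in AAV-RBM20, 24.4 percentage points apart, or 18.9 points from counts without the length. The CYFIP total was 3.63, 3.69 and 3.57 CPM per kilobase in AAV-GFP, against 5.76, 6.06 and 5.23 in AAV-RBM20, a ratio of means of 1.56. These values contain Cyfip2, so they were not tested.

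**Figure D2:**
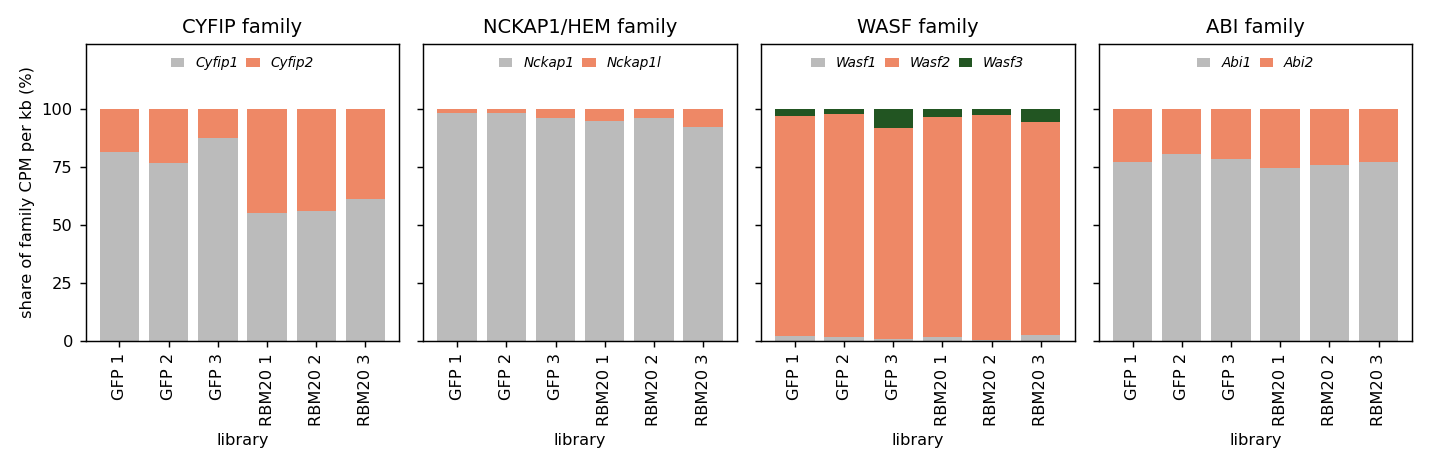
Share of each paralogue (percent of the family's CPM per kilobase, axis from 0) in each library for the 4 families with alternative members. The Cyfip2 share is 12.7 to 23.4% in AAV-GFP and 39.0 to 44.9% in AAV-RBM20, and in the other families the shares of the 2 groups overlap.

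None of the 9 other subunits passed the adjusted threshold of 0.05 in the edgeR test, and none did with DESeq2 or limma-voom. All 10 genes had passed the filter on low counts. Over all genes, 0 of 17222 (0%) passed in edgeR, none in limma-voom and 72 of 17609 (0.409%) in DESeq2. Even Rbm20, the delivered gene, did not pass in edgeR (adjusted p = 0.121) or limma-voom (adjusted p = 0.0967). It passed in DESeq2 (adjusted p = 3.82e-15). The lack of a call in edgeR or limma-voom therefore does not show that a subunit was unchanged. At an unadjusted p under 0.05, 1 of the 9 subunits (Nckap1l) was found, where 7.90% of all genes tested were. The ranges of Cyfip1 and Abi2 were higher in AAV-RBM20 without overlap and no subunit was lower without overlap, where 7.71% of all genes were higher and 9.04% lower in this way. Except for Nckap1l, the 9 had log2 fold changes between -0.16 and 0.23. Their median was 0.08 and that of all genes tested 0.01.

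Nckap1, the NCKAP1 form of most tissues, was an abundant subunit in every library. It measured 85.3, 81.7 and 92.5 CPM in AAV-GFP and 74.9, 73.4 and 83.6 CPM in AAV-RBM20. Each AAV-RBM20 value was below that of the same number in AAV-GFP, but the ranges overlapped. The log2 fold change was -0.16 ± 0.12 (edgeR, adjusted p = 0.711). A pseudogene inside the locus, Gm13689, took 35 to 85 counts against at least 2949 for Nckap1.

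Nckap1l encodes HEM1, the form of this subunit used by blood-forming and immune cells. It had 77, 65 and 229 counts in AAV-GFP libraries and 260, 138 and 410 counts in AAV-RBM20 libraries, or 1.89, 1.56 and 4.35 CPM against 4.77, 3.43 and 8.44 CPM. Within each number the AAV-RBM20 value was the higher, and the library numbered 3 was the highest of its group, so that AAV-GFP replicate 3 lay above AAV-RBM20 replicate 2. The log2 fold change of 1.09 ± 0.46 did not pass (edgeR, adjusted p = 0.618). With the replicate number as a block it was 1.13 ± 0.17 (adjusted p = 0.0610). Without both libraries numbered 3 it was 1.26 and passed (edgeR, adjusted p = 0.0135), in a fit where 4.00% of genes did. Leaving out AAV-GFP replicate 3 alone gave 1.68 and leaving out AAV-RBM20 replicate 3 alone gave 0.66, neither past the threshold. Its share of the NCKAP1 total was 1.82%, 1.57% and 3.78% in AAV-GFP, against 5.05%, 3.77% and 7.79% in AAV-RBM20 (two-sided exact permutation test, p = 0.200, where 0.1 is the smallest p that 3 against 3 allows).

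Leukocyte markers were measured beside Nckap1l. The 16 macrophage and pan-leukocyte markers, among them Ptprc (CD45), Cd68 and Csf1r, summed to 46.1, 44.4 and 141 CPM in AAV-GFP and to 101, 92.1 and 216 CPM in AAV-RBM20. Of these 16 genes, 15 had a positive log2 fold change, with a median of 0.80, where 8829 of all 17222 genes tested were positive. None passed the edgeR threshold, and none was at 0 in every library. Without overlap, 2 of the 16 (Itgam and Fcer1g) were higher in AAV-RBM20, where 7.71% of all genes were. The same 15 were higher in AAV-RBM20 in all 3 pairs of equal number, but the share of all genes that were was not counted. Markers of the same cells are also not independent of each other. With the replicate block Ptprc passed (1.28 ± 0.17, edgeR adjusted p = 0.0478). Nckap1l amounted to between 3.09% and 4.71% of the marker sum in the 6 libraries. Cyfip2 amounted to 10.5%, 13.8% and 2.28% of it in AAV-GFP and to 18.2%, 20.6% and 6.70% in AAV-RBM20. The marker sum was highest, and Cyfip2 lowest, in the library numbered 3 of each group. In bulk muscle, more cells of a type and more RNA per cell cannot be told apart.

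**Figure D3:**
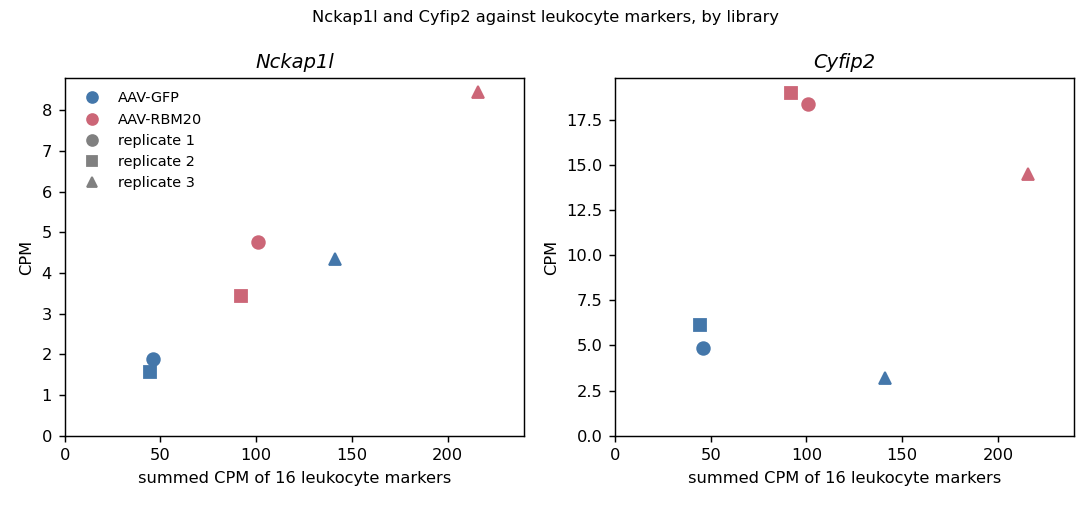
CPM of Nckap1l (left) and Cyfip2 (right) against the summed CPM of 16 leukocyte markers, 1 point per library, both axes from 0, with colours and shapes for group and replicate. Nckap1l runs from 1.56 CPM in AAV-GFP replicate 2, which has the lowest marker sum, to 8.44 CPM in AAV-RBM20 replicate 3, which has the highest, and Cyfip2 lies between 3.21 and 6.13 CPM in AAV-GFP and between 14.5 and 19.0 CPM in AAV-RBM20.

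Other cell types were looked at in the same way. The 9 T and NK cell markers summed to 2.81 to 3.71 CPM in AAV-GFP and averaged 5.78 CPM in AAV-RBM20, where replicate 3 was the highest and replicate 2 the lowest of all libraries at 2.71 CPM. They included only 3 genes past the filter on low counts. Schwann cell markers (17.9 to 46.7 and 25.6 to 39.9 CPM), endothelial markers (205 to 493 and 320 to 441), markers of smooth muscle and pericytes (542 to 589 and 502 to 590) and satellite cell markers (12.3 to 15.2 and 13.1 to 18.8) overlapped between AAV-GFP and AAV-RBM20. Markers of fibro-adipogenic progenitors and fibroblasts overlapped too, at 484 to 1020 and 836 to 1073 CPM, with all 5 log2 fold changes positive. None of these genes passed the edgeR threshold.

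Fibre genes differed in part between the groups. The 8 fast-fibre markers summed to 92538 to 101028 CPM in AAV-GFP and 60115 to 88979 CPM in AAV-RBM20, without overlap, and 6 of the 8 had a negative log2 fold change. Taken singly, 2 of the 8 (Tnnt3 and Pvalb) were lower without overlap, where 9.04% of all genes were. The fast myosin genes Myh1 (0.42) and Myh2 (0.76) had positive log2 fold changes, and no gene of the 8 passed the edgeR threshold. The 7 slow-fibre markers overlapped, at 44.4 to 85.9 and 80.0 to 133 CPM. The 12 genes of regenerating or denervated fibres summed to 93.0 to 107 and 93.5 to 120 CPM, and 5 of the 11 that could be tested were higher in AAV-RBM20 without overlap and 1 was lower, where 7.71% and 9.04% of all genes were. Runx1, a transcription factor gene induced in denervated muscle, measured 4.77, 6.01 and 5.95 CPM in AAV-GFP and 13.8, 12.4 and 13.5 CPM in AAV-RBM20 (1.25 ± 0.15, edgeR adjusted p = 0.257, and 0.0271 with the replicate block). The developmental myosin genes Myh3 and Myh8 both had a log2 fold change of 2.00 and did not pass (edgeR, adjusted p = 0.618 and 0.617). The part of any of these cell or fibre differences in the Cyfip2 and Nckap1l values was not tested.

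The WASF position, which carries the ARP2/3-activating end, was filled almost wholly by Wasf2 at the RNA level. Wasf2 measured 40.9, 44.4 and 31.0 CPM in AAV-GFP and 48.9, 46.4 and 37.5 CPM in AAV-RBM20 (log2 fold change 0.19 ± 0.17, edgeR adjusted p = 0.749). Each AAV-RBM20 value exceeded the one of the same number, with overlapping ranges. Wasf2 held between 91.2% and 97.0% of the WASF total per kilobase in the 6 libraries (exact permutation p = 0.700 between groups). Wasf3 was low, with 39 to 120 counts in AAV-GFP libraries and 45 to 95 counts in AAV-RBM20 libraries (0.08 ± 0.39, edgeR adjusted p = 0.962). Wasf1, the form best known from brain, had 16, 14 and 6 counts in AAV-GFP libraries and 18, 2 and 21 counts in AAV-RBM20 libraries, and its fold change has an SE of 0.93 on the log2 scale. A difference in Wasf1 was not detectable at this depth.

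The ABI adaptors, which link WASF proteins to the rest of the complex, and BRK1, the small subunit that holds the WASF and ABI helices together, did not pass the test. Abi1 measured 21.9, 22.4 and 25.3 CPM in AAV-GFP and 21.2, 23.2 and 25.5 CPM in AAV-RBM20 (0.01 ± 0.13, edgeR adjusted p = 0.990). Abi1 shares 3.41% of its 50-base words with Pdss1, which overlaps it on the opposite strand. Abi2 measured 14.0, 11.5 and 14.7 CPM and then 15.5, 15.5 and 16.2 CPM, just above the AAV-GFP range in every library (0.23 ± 0.13, edgeR adjusted p = 0.658). Its share of the ABI total was 21.4% ± 1.79 in AAV-GFP and 24.2% ± 1.29 in AAV-RBM20 (exact permutation p = 0.200). Brk1 measured 20.4, 17.6 and 25.2 CPM and then 19.0, 20.7 and 18.7 CPM (-0.11 ± 0.15, edgeR adjusted p = 0.835). Its groups overlapped throughout.

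Per kilobase of exon, the order of the subunits put Brk1 and Nckap1 at the top in both groups. In AAV-GFP the means were 19.2 ± 3.49 CPM per kilobase for Brk1, 17.4 ± 1.11 for Nckap1, 6.20 ± 1.11 for Wasf2 and 5.75 ± 0.449 for Abi1. Cyfip1 followed at 2.97 ± 0.142, Abi2 at 1.57 ± 0.197, Cyfip2 at 0.666 ± 0.206, Nckap1l at 0.438 ± 0.257, Wasf3 at 0.280 ± 0.139 and Wasf1 at 0.0985 ± 0.0517 (SD, n = 3). Neighbours in this order whose ranges overlapped were Brk1 and Nckap1, Wasf2 and Abi1, Cyfip2 and Nckap1l, and Nckap1l and Wasf3. In AAV-RBM20 the order was the same except that Cyfip2, at 2.43 ± 0.343, stood above Abi2, at 1.84 ± 0.0503, in all 3 libraries. There only Wasf2 and Abi1 overlapped. Summed by position, the family totals other than CYFIP overlapped between groups. The NCKAP1 total was 17.9 ± 1.36 CPM per kilobase in AAV-GFP and 16.5 ± 1.55 in AAV-RBM20 (exact permutation p = 0.300), the WASF total 6.57 ± 1.02 and 7.47 ± 0.874 (p = 0.400), and the ABI total 7.32 ± 0.588 and 7.62 ± 0.579 (p = 0.500).

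The machinery on either side of the complex was read from the same fit, as 6 lists of 61 genes. No gene of these lists passed the threshold in edgeR, DESeq2 or limma-voom. At an unadjusted p under 0.05 there were 4 higher and 4 lower, and 5 genes were higher and 8 lower without overlap, beside the shares of all genes given above. The log2 fold changes had a median of -0.01, with 30 positive and 31 negative. Upstream of the complex, 13 GTPases, exchange factors and adaptors had a median of 0.01. Rac1, the main RAC GTPase of muscle, measured 136, 134 and 162 CPM in AAV-GFP and 131, 131 and 126 CPM in AAV-RBM20, a little lower without overlap (-0.16, edgeR adjusted p = 0.730). The ends of this list were Rac2, the RAC of blood cells, at 0.67 ± 0.71 and the RAC exchange factor gene Tiam1 at -0.52 ± 0.28. Both moved when 1 library was left out. Without AAV-GFP replicate 3 they were 1.88 and -0.14, and without AAV-RBM20 replicate 3 they were -0.028 and -0.69. Without both libraries numbered 3 they were 1.18 and -0.31, and with the replicate block 0.87 ± 0.29 and -0.47 ± 0.14. Neither gene passed the threshold in any of these fits. Baiap2, an adaptor between RAC and WASF proteins, measured 2.39, 2.52 and 1.56 CPM and then 3.74, 3.01 and 3.21 CPM (0.63 ± 0.25, edgeR adjusted p = 0.618).

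Downstream, the median over the 10 ARP2/3 subunit genes was -0.09 on the log2 scale. The core genes Actr2 (-0.07) and Actr3 (0.05) lay near 0, and Arpc5 was the highest at 0.16 ± 0.21. Actr3b, a paralogue of Actr3, was the lowest at -0.86 ± 0.50, with 20.0 CPM in AAV-GFP replicate 3 and 3.81 to 8.75 CPM in all other libraries. Without that library Actr3b was -0.086 and Arpc5 was 0.36. Without AAV-RBM20 replicate 3 they were -1.23 and 0.024, and without both libraries numbered 3 they were -0.46 and 0.22. With the replicate block Actr3b was -0.72 ± 0.17 (edgeR, adjusted p = 0.123). Arpc5l measured 55.6, 54.5 and 83.0 CPM in AAV-GFP and 42.1, 43.0 and 49.2 CPM in AAV-RBM20, lower without overlap (-0.52, edgeR adjusted p = 0.618). Cap2, an actin-recycling gene of striated muscle, measured 290, 281 and 364 CPM in AAV-GFP and 234, 218 and 260 CPM in AAV-RBM20 (-0.39, edgeR adjusted p = 0.618). Without both libraries numbered 3, Arpc5l and Cap2 passed the threshold, both lower in AAV-RBM20, in the fit where 4.00% of all genes passed.

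Among 13 other nucleation-promoting factors and their partners, the median was 0.09. Was, which encodes the WASP protein of blood cells, was the highest, with 0.467, 0.311 and 0.665 CPM in AAV-GFP and 0.807, 1.07 and 1.09 CPM in AAV-RBM20 (1.02 ± 0.37, edgeR adjusted p = 0.618). Its widely expressed paralogue Wasl was at 0.09 ± 0.11, and Washc1, of the endosomal WASH complex, was the lowest at -0.36 ± 0.14. The 7 inhibitors and debranching factors of ARP2/3 had a median of 0.16, from -0.15 for Pick1 to 0.90 ± 0.61 for Gmfg. Without AAV-RBM20 replicate 3 these were -0.065 and 0.26, compared with -0.28 and 1.41 when AAV-GFP replicate 3 was left out. The 12 genes of actin monomer binding, severing and capping had a median of -0.07, from -0.45 for Capza2 to 0.36 for Tmsb10. Without AAV-GFP replicate 3 these were -0.072 and 0.72, and without AAV-RBM20 replicate 3 Tmsb10 was 0.12. The ends of both lists thus moved when 1 of the libraries numbered 3 was left out. Without both of these libraries they were -0.19 for Pick1, 0.77 for Gmfg, -0.15 for Capza2 and 0.48 for Tmsb10. The 6 genes of the FMRP family and its partners had a median of -0.10, from -0.31 for Fxr2 to 0.05 for Fmr1 itself. The groups of Fmr1 overlapped, at 13.2 to 18.5 and 14.1 to 18.3 CPM.

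**Figure D4:**
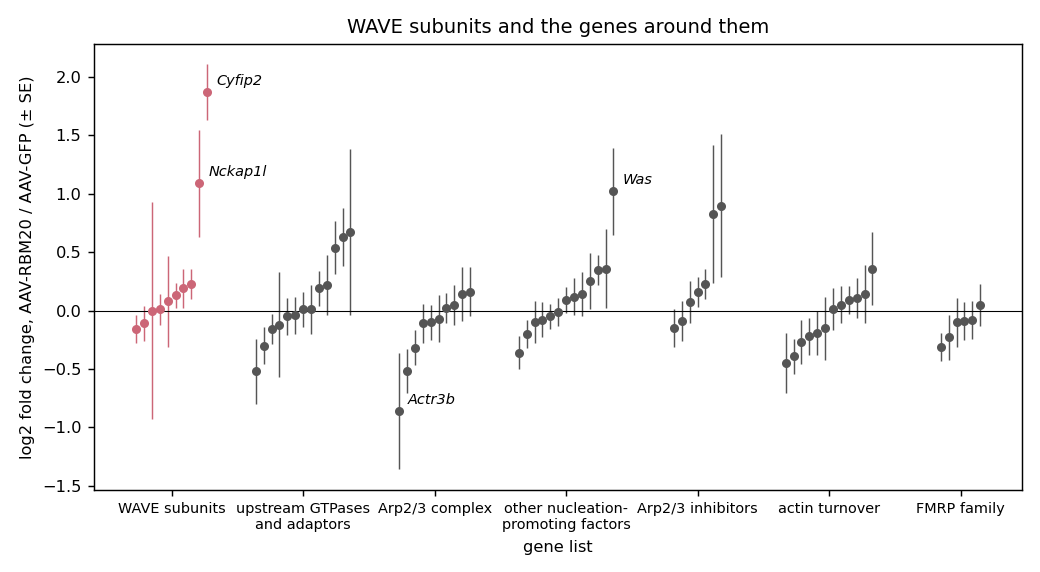
Log2 fold change (AAV-RBM20 over AAV-GFP, bars ± SE from the edgeR fit, n = 3 per group) of the 10 WAVE subunit genes in red and of 61 genes in 6 lists around them in grey, sorted within each list. Most points lie near 0, with list medians from -0.10 to 0.16, and Cyfip2 at 1.87 is the highest point.

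Finally, genes were ranked by how closely their log2 CPM followed that of Cyfip2 over the 6 libraries. These points fall into the 2 treatment groups and share the libraries, so a high Pearson r largely reflects the same contrast and is a description. Of the 11554 other genes at or above the same mean level, 46 had an r of at least 0.95. The 8 closest were Tcaf1 (0.992), which encodes a regulator of a TRP channel, Slc25a40 (0.986), a mitochondrial carrier, Pttg1ip (0.983), Atf6 (0.983), a sensor of endoplasmic reticulum stress, Ugcg (0.981), the glucosylceramide synthase, Sh2d4a (0.981), Cerk (0.980), the ceramide kinase, and Fam124b (0.979). Their log2 fold changes were smaller than that of Cyfip2, from 0.08 for Atf6 to 1.02 for Sh2d4a. Rbm20 had an r of 0.96 and stood at rank 29. Of the 7 other subunits at this level (Wasf1 and Wasf3 were below it), none reached an r of 0.95, with 0.69 for Wasf2, 0.65 for Cyfip1, 0.52 for Abi2, 0.46 for Nckap1l, -0.20 for Abi1, -0.51 for Brk1 and -0.88 for Nckap1.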

How the data were processed

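RNA was taken from whole pulverised TA muscle, and ribosomal RNA-depleted stranded libraries were sequenced in pairs. The authors aligned reads with HISAT2 (mm10) and obtained gene counts with HTSeq, and the deposited counts are raw whole numbers. Tool versions, the annotation and the strand setting are not given in the sources used here. In the second deposited table the authors give a signal, the same counts over 1 DESeq2 size factor per library, used here only to check ratios. Symbols, positions and merged exon lengths came from GENCODE M21 (GRCm38), which held 55141 of 55401 identifiers.

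Samples were grouped by the labels' treatment. Groups were compared over all genes in edgeR 4.0.16 (R 4.3.3) by its quasi-likelihood test (robust glmQLFit) after filterByExpr and TMM, with no covariate, and p-values were adjusted by Benjamini-Hochberg over 17222 genes at a threshold of 0.05. CPM used TMM-scaled totals. Family shares and totals other than CYFIP were tested by a two-sided exact permutation test. The scripts were tested on simulated data. Counts of replicates differed well beyond sampling noise (chi-square per degree of freedom 15.1 to 545), so none was a second copy.

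Titles number both groups 1 to 3, but the descriptions and column names number AAV-RBM20 onwards from AAV-GFP, and every pairing here uses the titles. Deviations of same-numbered libraries from their group means correlated at 0.42, 0.20 and 0.48 across genes, all above 0.1. Equal numbers were therefore treated as pairs in the replicate block and where libraries of the same number are compared. The main edgeR fit and the permutation tests did not use this pairing. Differently numbered libraries ranged from -0.42 to 0.22. AAV-GFP 1 with AAV-RBM20 2 (0.13) and AAV-GFP 2 with AAV-RBM20 1 (0.22) also lay above 0.1. The latter value exceeded that of AAV-GFP 2 with its own number (0.20). The correlations thus set the libraries numbered 3 apart but do not settle the pairing of replicates 1 and 2, which rests on the titles.

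The members and lists were chosen with earlier results of these data known. Named genes were the 10 subunits, Rbm20 and Bmal1 as checks (Bmal1, Arntl in the annotation, had a log2 fold change of -0.41 ± 0.13, edgeR adjusted p = 0.618), the highest and lowest of each list, genes overlapping or within 250 kb of Cyfip2 (not all are reported here), the 8 genes with the highest r, and markers. Rac1, Baiap2, Actr2, Actr3, Arpc5l, Cap2 and Wasl, and the genes overlapping other subunits, were added after their values were seen. Alternatives were DESeq2 1.42.0 and its size factors, upper quartile factors, 2 other filters, limma-voom (limma 3.58.1), the replicate block, leaving out mitochondrial, Ttn and Rbm20 counts, and leaving out libraries. Splicing was not analysed here.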

Additional observations from a re-analysis of the deposited data

How the results depend on the processing

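Over 15 alternatives the log2 fold change of Cyfip2 stayed between 1.65 (without AAV-GFP replicate 3) and 2.10 (without AAV-GFP replicate 2), always positive, and its share of the CYFIP total was 24.4 percentage points higher in AAV-RBM20, or 18.9 from counts without the exon length. The count of all genes past the threshold, 0 in the main analysis, was 8 without a low-count filter, 25 with the replicate block (0.145% of genes), 72 with DESeq2 and 690 without both libraries numbered 3, and 0 in each fit that left out 1 library. Among the 9 subunits other than Cyfip2, which was not tested, that last setting gave 1 (Nckap1l, 1.26), and among pathway genes 2 (Arpc5l and Cap2), compared with 0 of each in all other settings. The cause was not tested. The replicate block, which uses the pairing by title number, left the other 9 subunits at 0 past the threshold and the 61 pathway genes at 0, and changed the call of Rbm20 (1.53) and of the markers Ptprc (1.28) and Runx1 (1.26).

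Subunits with a log2 fold change near 0 changed sign without passing any threshold. Wasf1 gave 0.038 with upper quartile factors and -0.47 to 0.45 when 1 library was left out, with 0.31, 0.14 and 0.45 on the positive side. Wasf3 gave -0.16 to 0.56, with -0.066, -0.16 and -0.12 below 0. Abi1 gave -0.0029 without a filter, -0.010 with DESeq2 and -0.054 to 0.077 when 1 library was left out, with -0.035, -0.022 and -0.054 below 0. Brk1 gave -0.23 to 0.032 when 1 library was left out, the latter without AAV-GFP replicate 3, and 0.069 without both libraries numbered 3. Rac2 gave -0.028 (without AAV-RBM20 replicate 3) to 1.88, and Fmr1 -0.068 to 0.23, with -0.037 and -0.030 also below 0. The shares within WASF changed sign as well, with a range of -0.626 to 0.423 points for Wasf1 (0.156 the other positive value), -0.773 to 1.98 for Wasf2 (-0.554 the other negative value) and -1.57 to 1.25 for Wasf3 (0.131 the other positive value). Where 1 library was left out, the group of 2 shared the spread of the other group. Counts of 2 to 21 limit Wasf1, and 3 libraries per group with 2 standing apart limit every test.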
